A study of Rattus norvegicus with 9 samples.

Results

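Denervated gastrocnemius was compared with sham-operated gastrocnemius across all genes measured. The comparison took the libraries labelled DN1 to DN3 against those labelled SHAM1 to SHAM3, which are 6 of the 9 samples in the series, 3 in each group. The gastrocnemius is a muscle of the calf whose motor axons run in the sciatic nerve. Messenger RNA was isolated from whole muscle and sequenced. All 6 libraries came from male rats that the labels give as 8 weeks old and whose strain they do not name. SHAM rats had a sham operation and no stimulation. DN rats had a sciatic nerve injury and no stimulation. Rats of both groups were also anaesthetised with pentobarbital, shaved and fitted with surface electrodes through which no current was passed, so that handling is shared by the controls. The other 3 libraries, from injured muscle that was stimulated electrically each day for 4 weeks, were not part of this comparison. How the nerve was injured, how long after surgery the muscle of these 2 groups was taken, the time of day, and whether each library was a separate animal are not given in the sources used here, so p-values measure the spread between these samples.

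A muscle fibre whose motor nerve is lost stops contracting, spreads acetylcholine receptors beyond the former junction, re-expresses embryonic contractile genes and loses mass, in part through ubiquitin ligases and autophagy. The nerve stump within the muscle holds Schwann cells, which shed and digest myelin after axons degenerate. Skeletal muscle also has its own circadian clock, in which the activators BMAL1 and CLOCK drive the period, cryptochrome and REV-ERB repressors that feed back on them.

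The labelled tissue was checked against its markers. All 10 skeletal muscle fibre markers were measured, and their summed level was 164000 to 179000 FPKM in SHAM and 184000 to 201000 in DN. FPKM is the authors' measure of level, in fragments scaled for transcript length and library size. It lacks the further scaling between libraries, TMM, that the fits below use. The TMM factors were 1.071, 0.915 and 0.938 in SHAM replicates 1 to 3 and 0.983, 1.018 and 1.087 in DN. Expected counts summed to between 7926445 and 8893843 per library. SHAM was the more variable group: in log2 CPM, a count scaled by library size, genes had a median SD of 0.247 in SHAM and 0.184 in DN. On the first principal component, with 44% of the variance, the DN libraries lay at 18.66 to 21.71, whereas the SHAM libraries lay at -17.78, -42.55 and -0.47 for replicates 1 to 3. SHAM replicate 2 was the SHAM library farthest from DN and SHAM replicate 3 the nearest.

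Most genes differed little between DN and SHAM after scaling. TMM scaling places the bulk of the log ratios near 0. The median and the share of positive values below therefore cannot show whether all genes shifted together. Over 9916 genes tested with edgeR's quasi-likelihood F test the median log2 fold change was -0.017, 25% of genes lay below -0.26 and 25% above 0.22, and 47.9% had a positive value. At an adjusted p under 0.05, 156 genes passed (1.57%), of which 103 were higher in DN (1.04%) and 53 lower (0.534%). Changes of 2-fold or more were seen in 60 of the higher genes and 30 of the lower ones, and no gene with an absolute log2 fold change under 0.59 passed. An unadjusted p under 0.05 was reached by 1897 genes (19.1%). In FPKM, all 3 DN libraries lay above all 3 SHAM libraries in 15.9% of tested genes and below them in 6.96%, and this separation held for each of the 156 called genes. Separation here and below is counted in FPKM, without the TMM scaling of the fits. The part of that difference in scale in the larger upward share was not tested. The share called was 0.912% among genes with a mean level under 5 FPKM, 1.95% from 5 to 20, 2.78% from 20 to 100 and 1.16% at 100 FPKM or more. Transcript length moved with the direction: of genes under 1000 nucleotides 14 were higher and 0 lower, with a median log2 fold change of 0.05, and of those of 5000 nucleotides or more 8 were higher and 8 lower, with a median of -0.09. The trend was not shared by all libraries of a group. From 5000 nucleotides up, the median deviation from the mean log2 CPM was 0.138, 0.048 and -0.053 in SHAM replicates 1 to 3 and -0.018, -0.039 and -0.05 in DN. Under 1000 nucleotides it was -0.066, -0.064 and 0.07 in SHAM and -0.022, 0.071 and 0.066 in DN. The part of length in the results was not tested. Gene lists below are described by their called members, read against these shares, and by the median over the members tested. Where a list has a single called member, that gene is described and nothing is read from it about the list.

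Leaving out each library in turn showed how the calls varied with the libraries in the fit. Each of these fits has 1 library fewer, which by itself can change what passes. A lost call was therefore not taken to rest on the library left out. The number of calls ran from 15 without DN replicate 1 to 739 without SHAM replicate 3, with 82 and 109 without SHAM replicates 1 and 2 and 54 and 35 without DN replicates 2 and 3. Of the 156 calls, 87 were kept without SHAM replicate 2, 64 without SHAM replicate 1 and 153 without SHAM replicate 3. Without DN replicates 1, 2 and 3, 15, 47 and 30 were kept. Outside the 14 genes called in all of these fits, each call named below was therefore lost in at least 1 of them.

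Those 14 genes, 1 of which has no symbol in the RefSeq table, were named for that reason after their values were seen. Apod, a secreted carrier of small lipids that is known from glia and regenerating nerve, was at 4.87, 3.04 and 4.74 FPKM in SHAM and at 35.0, 63.1 and 40.3 in DN. Its highest SHAM library was below its lowest DN library by a wide margin, and its log2 fold change was 3.37 (SE 0.274, edgeR adjusted p = 0.00153; 3.08 to 3.51 with any 1 library left out). Serpina3n, a secreted serine protease inhibitor, was at 0.30, 0.11 and 0.49 FPKM in SHAM and at 3.79, 4.93 and 5.55 in DN (a log2 fold change of 3.86 with SE 0.378, edgeR adjusted p = 0.0028). Fscn1, which bundles actin filaments, was at 18.6 ± 1.78 FPKM in SHAM libraries and at 44.6 ± 4.48 in DN libraries (SD, n = 3; a log2 fold change of 1.18, edgeR adjusted p = 0.0028). Gpihbp1, the endothelial protein that carries lipoprotein lipase to the capillary lumen, was at 6.45, 6.75 and 7.52 FPKM in SHAM and at 19.8, 18.1 and 22.5 in DN, with a log2 fold change of 1.46. Neither group of libraries overlapped the other in any of these genes. Sez6l2, a membrane protein of neurons, and Ppp1r14c, an inhibitor of protein phosphatase 1, rose by 2.34 and 2.22 on the log2 scale from levels under 1 FPKM in every SHAM library. The period gene Per2 also rose and is described with the clock.

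The falls that passed in all of these fits were in Pdk4, Fkbp5, Bmal1, Ltb and the class I histocompatibility gene RT1-CE16. Pdk4, the kinase that switches off pyruvate dehydrogenase and so spares glucose when fat is burned, was at 71.0, 61.8 and 80.2 FPKM in SHAM and at 29.1, 26.3 and 31.0 in DN (a log2 fold change of -1.38 with SE 0.14, edgeR adjusted p = 0.0028). Fkbp5, a co-chaperone that tunes glucocorticoid receptors, was at 5.54, 5.91 and 4.49 FPKM in SHAM and at 1.24, 1.84 and 1.82 in DN (log2 fold change -1.79, edgeR adjusted p = 0.0052). Ltb, the cytokine lymphotoxin beta, was at 10.2, 6.87 and 7.87 FPKM in SHAM and at 1.27, 1.91 and 1.38 in DN (log2 fold change -2.51, edgeR adjusted p = 0.0028). Each of these falls left the DN libraries close together and below every SHAM library. RT1-CE16 was lower by -1.99 and RT1-T24-3 higher by 1.81 on the log2 scale, but rat class I genes are near-identical copies, and how reads were divided among them was not tested.

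**Figure D1:**
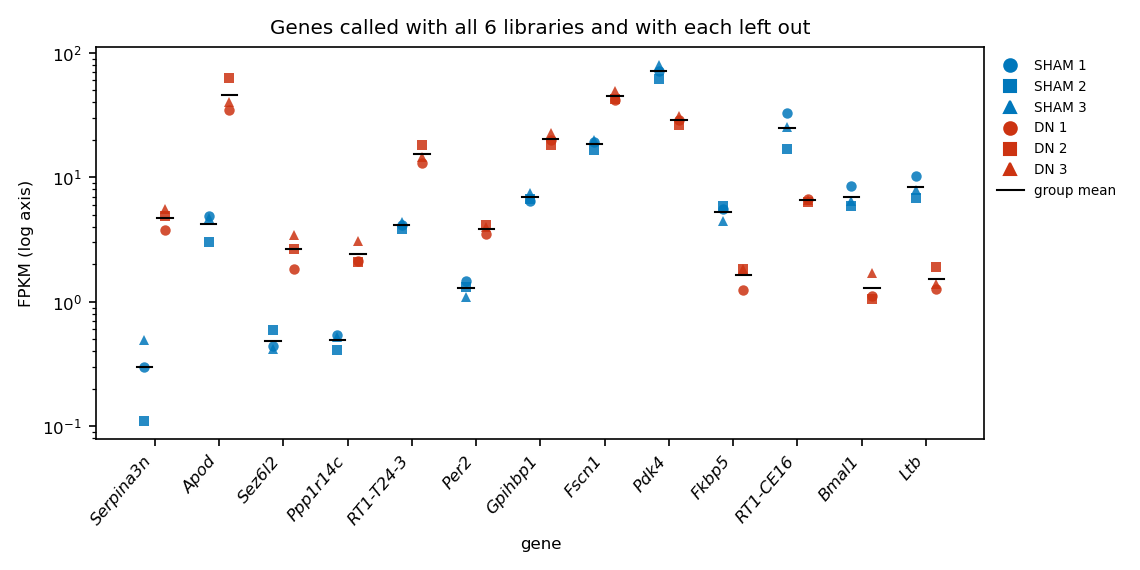
FPKM (log axis) of the 13 genes with a symbol that passed with all 6 libraries and with each library left out, with 1 point per library (SHAM blue, DN red, shape by replicate) and a black bar for each group mean. The 8 genes from Serpina3n to Fscn1 are higher in DN and the 5 from Pdk4 to Ltb lower, with no overlap between groups.

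Called clock genes stood on both sides of the feedback loop. Among the activators, 1 of 3 tested members fell, beside 0.534% of all genes, and all 3 had negative log2 fold changes. Bmal1, the activator itself, was at 8.55, 5.84 and 6.43 FPKM in SHAM and at 1.11, 1.06 and 1.71 in DN, so the lowest SHAM library was above the highest DN library. Its log2 fold change was -2.49 (SE 0.215, edgeR adjusted p = 0.00153) and -2.56 without SHAM replicate 2. Npas2, a partner of BMAL1 that can replace CLOCK, had a log2 fold change of -1.47 (edgeR adjusted p = 0.0606) and passed without SHAM replicate 2, at -1.74 (0.0242). Clock was at -0.88 (0.136), with overlapping groups.

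Of 12 repressors tested, 2 rose, beside 1.04% of all genes, and 0 fell. As a list they did not shift to one side: 6 had positive and 6 negative log2 fold changes. The median was -0.03 (0.11 without SHAM replicate 2). Ciart, which represses the BMAL1 and CLOCK pair, was at 0.27, 1.30 and 1.43 FPKM in SHAM and at 10.2, 11.6 and 7.05 in DN (a log2 fold change of 3.14 with SE 0.451, edgeR adjusted p = 0.0165). It was called without SHAM replicate 2, and its highest adjusted p with 1 library left out was 0.0725. Per2 was at 1.46, 1.31 and 1.09 FPKM in SHAM and at 3.53, 4.12 and 3.98 in DN, a log2 fold change of 1.51 (SE 0.17, edgeR adjusted p = 0.00373). Per1, Per3 and Cry2 lay above SHAM in every DN library with log2 fold changes of 1.29, 0.69 and 0.41, and Cry1 below at -0.48, but none of these passed. The REV-ERB genes Nr1d1 and Nr1d2, which repress Bmal1, did not separate the groups. Among the clock output factors, 1 of 6 tested members rose: Dbp, a D-box activator, was at 25.8, 54.0 and 57.6 FPKM in SHAM and at 204, 235 and 179 in DN (2.12, edgeR adjusted p = 0.0265; 2.28 and 0.0938 without SHAM replicate 2). Of these 6 genes 4 had negative log2 fold changes, and the median was -0.15 (0.08 without SHAM replicate 2). DESeq2 called 1 higher and 1 lower. Usp2, a ubiquitin protease with rhythmic expression, rose by 0.86 (edgeR adjusted p = 0.0128). The labels give no time of day for collection, and its part in these differences was not tested.

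The promoters of Bmal1, Ciart and Per2, the clock genes that passed with and without SHAM replicate 2, are shown because known clock motifs stand in them. They are RefSeq windows from 250 bases before to 50 bases after the gene start on build GRCr8, which is not the build used for the reads, and are written 5′ to 3′ on the gene's strand with motif matches in capitals. The motifs searched on both strands were the E-box CACGTG, bound by BMAL1 and CLOCK, the D-box TTANNTAA, bound by DBP and its relatives, and the ROR element ANTNGGTCA, bound by REV-ERB and ROR proteins.
Bmal1, chr1:176766078-176766377, + strand, with 1 ROR element 18 bases before the start: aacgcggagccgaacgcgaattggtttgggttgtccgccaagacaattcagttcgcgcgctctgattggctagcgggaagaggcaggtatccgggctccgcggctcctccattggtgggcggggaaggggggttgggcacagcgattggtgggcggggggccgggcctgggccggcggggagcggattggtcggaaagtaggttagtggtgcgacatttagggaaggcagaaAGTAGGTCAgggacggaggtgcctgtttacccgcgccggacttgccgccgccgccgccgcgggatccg
Ciart, chr2:186112197-186112496, - strand, with 3 E-boxes 93, 35 and 21 bases before the start: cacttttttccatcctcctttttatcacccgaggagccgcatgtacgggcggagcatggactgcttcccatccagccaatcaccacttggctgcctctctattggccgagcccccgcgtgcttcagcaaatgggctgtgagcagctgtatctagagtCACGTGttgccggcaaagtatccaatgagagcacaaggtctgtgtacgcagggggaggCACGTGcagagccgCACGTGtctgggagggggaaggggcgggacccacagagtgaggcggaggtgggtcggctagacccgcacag
Per2, chr9:99496944-99497243, - strand, with 1 D-box 192 bases before the start: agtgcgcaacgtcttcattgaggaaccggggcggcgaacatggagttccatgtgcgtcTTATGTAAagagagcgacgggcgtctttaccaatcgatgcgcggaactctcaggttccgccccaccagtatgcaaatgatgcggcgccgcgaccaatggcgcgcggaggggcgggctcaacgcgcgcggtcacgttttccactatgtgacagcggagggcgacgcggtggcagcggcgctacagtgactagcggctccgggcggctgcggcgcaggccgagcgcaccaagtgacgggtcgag

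Among all 27457 promoters of this length, 6.65% held the E-box, 5.81% the D-box and 2.43% the ROR element. The windows of Npas2, Clock, Per1, Per3, Cry2, Nr1d1, Nr1d2, Dbp and Usp2 held none of these letters. Those of the clock genes Tef, Bhlhe40 and Bhlhe41 held 1 E-box each, as did that of Asb2. Tef was not called (log2 fold change 0.41, edgeR adjusted p = 0.192), so a motif was not confined to called clock genes. Of called genes with a promoter in the table, 2 of 73 higher genes (2.74%) and 4 of 38 lower genes (10.5%) held the E-box, against 9.92% of tested genes. The D-box was in 2 of the 73 (2.74%) and 1 of the 38 (2.63%), against 3.06% of tested genes. The ROR element was in 2 of the 73 (2.74%) and 2 of the 38 (5.26%), against 1.65% of tested genes. The myogenic E-box CAGCTG, also searched, was in 15 of the 73 higher genes (20.5%) and 9 of the 38 lower genes (23.7%), against 16.3% of tested genes. The matches describe the letters only and say nothing of binding.

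**Figure D2:**
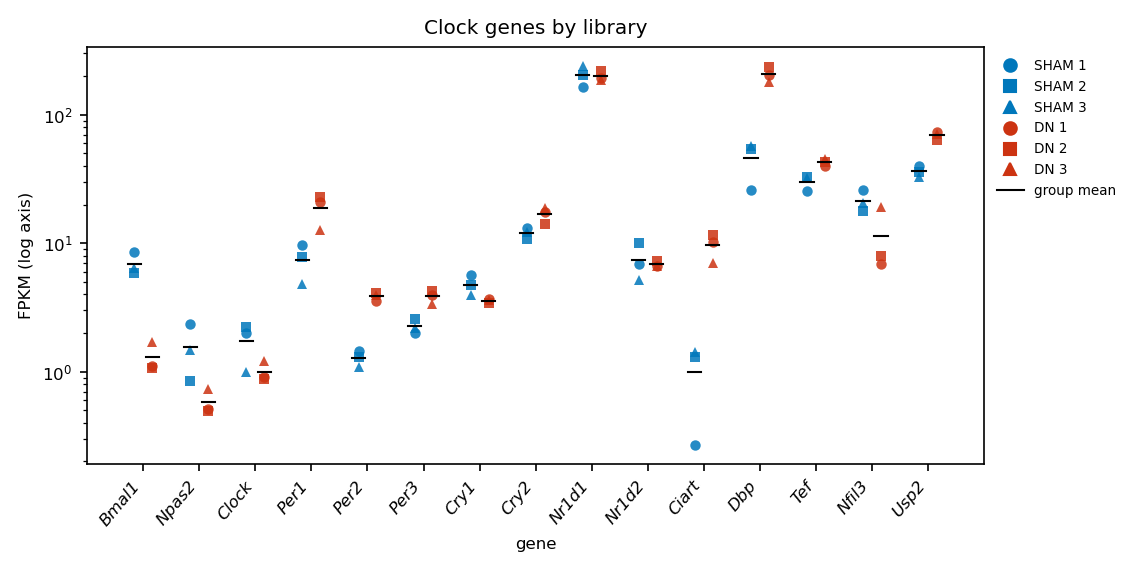
FPKM (log axis) of 15 clock and clock-linked genes, with 1 point per library (SHAM blue, DN red, shape by replicate) and a black bar for each group mean. Bmal1 and Npas2 lie lower in every DN library than in any SHAM library, Per1, Per2, Per3, Ciart, Dbp and Usp2 lie higher, and Nr1d1 and Nr1d2 overlap.

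Regulators that are known to be induced in denervated muscle had mostly positive estimates, though few passed. Of 14 tested denervation-responsive regulators, 4 rose and 0 fell, and the median log2 fold change was 0.91 (0.92 without SHAM replicate 2), beside -0.017 over all genes. That is 4 of 14 members called as higher, beside 1.04% of all genes. Ankrd1, a titin-associated protein that responds to stretch, was at 3.24, 4.12 and 7.12 FPKM in SHAM and at 23.9, 22.2 and 35.7 in DN (2.39, SE 0.304, edgeR adjusted p = 0.0119). Mt1, a metal-binding metallothionein, stood at 4.64 ± 0.895 FPKM in SHAM and at 18.1 ± 3.50 in DN (SD, n = 3), a rise of 1.86. Both were also called without SHAM replicate 2. Cdkn1a, the cell cycle inhibitor p21, rose by 3.18 with 37.2 FPKM in DN replicate 2 and 87.0 and 123 in the others, and Myog, a myogenic transcription factor, rose by 0.85. These last 2 calls did not hold without SHAM replicate 2, at adjusted p = 0.145 and 0.0528. Of the acetylcholine receptor and junction genes 0 of 14 tested members passed by edgeR, 6 had an unadjusted p under 0.05, all higher, and DESeq2 called 2 higher. Of these 14 genes 12 had positive log2 fold changes and the median was 0.32 (0.39 without SHAM replicate 2). The receptor subunit Chrnd had 20.1, 7.97 and 5.89 FPKM in SHAM and 35.3, 25.6 and 38.5 in DN (1.51, edgeR adjusted p = 0.0838). Ncam1, an adhesion molecule that spreads over denervated fibres, was at 1.07 (0.0513). Groups did not overlap in either gene. Chrna1 was at 0.64 (0.163) with overlap, and Chrng at 1.68 (0.152), from levels under 1 FPKM in SHAM.

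Receptors for nerve-derived and neurotrophic signals moved in both directions. Of 17 tested guidance and neurotrophic genes, 3 rose and 1 fell, beside 1.04% and 0.534% of all genes. Erbb2, a receptor subunit for neuregulin, was between 0.84 and 1.24 FPKM in SHAM and between 2.18 and 2.52 in DN (log2 fold change 1.17, edgeR adjusted p = 0.0264). Cntfr, the receptor of ciliary neurotrophic factor, was at 26.6, 23.9 and 24.1 FPKM in SHAM and at 42.5, 39.2 and 45.0 in DN (0.69, adjusted p = 0.0284 by edgeR). Unc5a, a receptor of the guidance protein netrin, fell from 5.88 ± 1.57 to 1.65 ± 0.461 FPKM (SD, n = 3; -1.93, adjusted p = 0.0169 by edgeR). These 3 calls were kept without SHAM replicate 2. The neurotrophin receptor Ngfr rose by 1.82, and its call was not kept (adjusted p = 0.0568).

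Markers of Schwann cells were higher in DN, and they overlap with this group through Ngfr. Of 10 tested Schwann cell markers 3 rose (Ngfr, Mbp and Cnp), 9 lay above SHAM in every DN library beside 15.9% of all genes, and the median log2 fold change was 0.98. The summed level of the markers was 74.4 to 81.7 FPKM in SHAM and 155 to 339 in DN. Mbp, a protein of the myelin sheath, was at 6.05, 7.06 and 6.76 FPKM in SHAM and at 19.1, 43.0 and 17.2 in DN (1.94, edgeR adjusted p = 0.036). DN replicate 2 was its highest library, and the groups did not overlap. Without SHAM replicate 2 the list's median was 0.92 and 0 of the 3 calls were kept. In whole muscle, a higher number of cells of a type and more RNA per cell cannot be told apart.

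The estimates for fibre-type genes moved when SHAM replicate 2 was left out. In the slow-fibre contractile list 14 of 15 tested members had positive log2 fold changes and the median was 0.62. By edgeR 0 of them passed, 4 had an unadjusted p under 0.05 and were higher, and DESeq2 called 2 higher. In the adult fast-fibre list the median of 16 was -0.41 and 1 fell. SHAM replicate 2 lay 1.35 below the mean of the 6 libraries in log2 CPM over the slow list and 0.55 above it over the fast list. Without it the medians were 0.30 and -0.13. The fastest myosin heavy chain, Myh4, made up 75.2% of the FPKM summed over the 6 adult and developmental myosin heavy chain genes in SHAM replicate 2, 26.9% and 33.8% in the other SHAM libraries and 14.3% to 17.7% in DN. Its log2 fold change was -2.11 (edgeR adjusted p = 0.0891) with 6 libraries and -1.19 (0.0337) without SHAM replicate 2, a smaller change that passed. Mylk2, the kinase that primes fast myosin, fell from 437 ± 42.6 to 207 ± 47.5 FPKM (SD, n = 3; -1.16, adjusted p = 0.0286 by edgeR; 0.0543 without SHAM replicate 2). The slow myosin Myh7 was at 0.62 and at 0.27 without that library, and did not pass in either fit.

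Embryonic and neonatal sarcomere genes were estimated higher with or without that library, with medians of 0.94 and 1.07 over 7 tested members and 1 that rose. The riser was Vim, the intermediate filament of immature and non-muscle cells, at 84.8 ± 18.2 FPKM in SHAM and at 153 ± 15.4 in DN (SD, n = 3; 0.78, adjusted p = 0.0251 by edgeR). The embryonic myosin heavy chain Myh3 was at 5.90, 1.21 and 4.25 FPKM in SHAM and at 12.8, 22.5 and 28.2 in DN. Its log2 fold change was 2.42 (edgeR adjusted p = 0.0697), and 2.02 (0.0254) without SHAM replicate 2, its lowest library. Vim is not specific to fibres. In the Z-disc list Synm, which links intermediate filaments to the Z-disc, fell from 60.1 ± 10.4 to 34.5 ± 3.50 FPKM (SD, n = 3; -0.89, adjusted p = 0.0326 by edgeR).

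A pair of ion channels fell among the genes of excitation. Of 24 tested genes of excitation-contraction coupling and the sarcolemma, 2 fell and 0 rose, 7 had positive log2 fold changes, the median was -0.20 (-0.15 without SHAM replicate 2) and 8 lay below SHAM in every DN library, beside 6.96% of all genes. Scn4a, the sodium channel that carries the muscle action potential, was at 42.0, 37.2 and 36.0 FPKM in SHAM and at 26.7, 25.5 and 25.4 in DN (-0.64, adjusted p = 0.0278 by edgeR). Kcnj11, the pore of the ATP-sensitive potassium channel, was at 98.1, 104 and 104 FPKM in SHAM and at 68.4, 58.7 and 52.2 in DN (-0.85, 0.0304). Without SHAM replicate 2 Scn4a passed (0.0438) and Kcnj11 did not (0.0528). Cacna1s, the voltage sensor of the T-tubule, lay at -0.68 (0.0679). In the dystrophin complex 2 of 18 tested members fell, beside 0.534% of all genes, and both calls were kept without SHAM replicate 2. Aqp4, the water channel of fast fibres that is anchored by syntrophin, had 9.81, 7.39 and 4.28 FPKM in SHAM and 2.62, 2.11 and 1.99 in DN (-1.72, adjusted p = 0.0187 by edgeR). Sntb1, a syntrophin, fell by 2.61 on the log2 scale from levels of 1.43 to 1.64 FPKM. Of the 18 members 11 had negative log2 fold changes, and the median was -0.01 (-0.02 without SHAM replicate 2). At an unadjusted p under 0.05 by edgeR 5 were lower and 0 higher, and DESeq2 called 4 lower. The sarcoglycan gene Sgca and the dystroglycan gene Dag1 had log2 fold changes of 0.13 and 0.06, and neither passed.

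Glycogen genes had mostly negative estimates. Of 17 tested members 15 had negative log2 fold changes, 2 fell, beside 0.534% of all genes, and the median was -0.37 (-0.36 without SHAM replicate 2). At an unadjusted p under 0.05 by edgeR 7 were lower and 0 higher, and DESeq2 called 6 lower. In every DN library 6 lay below SHAM, beside 6.96% of all genes. Both falls were in subunits of phosphorylase kinase, which turns on glycogen breakdown. Phkb was at 12.7, 19.6 and 12.4 FPKM in SHAM and at 6.47, 5.40 and 4.11 in DN (-1.57, adjusted p = 0.0278 by edgeR; -1.27 and 0.0254 without SHAM replicate 2). Phka1 was at 62.6, 80.5 and 71.7 FPKM in SHAM and at 41.6, 45.9 and 32.7 in DN (-0.92, 0.0447), and its call did not hold without SHAM replicate 2 (0.0821). SHAM replicate 2 was the highest library for both genes, and the other SHAM libraries were still above DN.

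In glycolysis 1 of 21 tested enzymes and transporters fell. Hk2, the hexokinase of insulin-responsive muscle, was at 15.9, 11.7 and 15.6 FPKM in SHAM and at 9.07, 8.56 and 9.97 in DN (-0.72, adjusted p = 0.036 by edgeR; 0.0257 without SHAM replicate 2). Hk1, the more widespread hexokinase, lay above SHAM in every DN library at 0.69 (0.0873). Of the 21 members 15 had negative log2 fold changes. At an unadjusted p under 0.05 by edgeR 5 were lower and 2 higher, and DESeq2 called 3 lower and 1 higher. The list's median moved from -0.36 to -0.23 without SHAM replicate 2.

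Fuel handling by mitochondria showed single genes rather than whole lists. Pdk4 was the 1 gene called of 28 tested for pyruvate dehydrogenase and the tricarboxylic acid cycle, whose median was -0.04. Ucp3, a mitochondrial carrier tied to fat use, was the 1 gene called of 27 for fatty acid uptake and oxidation. It was at 34.6, 34.9 and 63.8 FPKM in SHAM and at 11.9, 18.4 and 13.4 in DN (-1.70, adjusted p = 0.0304 by edgeR), and the call did not hold without SHAM replicate 2 (-1.82, 0.0645). Respiratory chain subunits of complexes I, III, IV and V had medians between 0.07 and 0.21, and 0.01 to 0.14 without SHAM replicate 2, with 0 called in each by edgeR or DESeq2. At an unadjusted p under 0.05 there were 1, 1, 2 and 0 such subunits, all higher. Of 16 tested regulators of mitochondrial biogenesis 0 passed by edgeR, 2 had an unadjusted p under 0.05, both lower, and DESeq2 called 1 lower. Their median was -0.27, and 3 had positive log2 fold changes. Ppargc1a, the coactivator PGC-1alpha, stood at 1.30 ± 0.365 FPKM in SHAM and at 1.08 ± 0.122 in DN (SD, n = 3; -0.33, adjusted p = 0.57 by edgeR).

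Genes of lipid synthesis and transport rose in part. Of 27 tested genes of lipogenesis and cholesterol synthesis 3 rose and 1 fell, and of 21 of lipid transport and droplets 4 rose and 0 fell. Over all genes 1.04% rose and 0.534% fell. Scd2, a desaturase that makes monounsaturated fat, was at 6.38, 4.11 and 6.49 FPKM in SHAM and at 17.1, 12.2 and 20.9 in DN (1.49, adjusted p = 0.0137 by edgeR). Scarb1, a receptor for high-density lipoprotein, rose by 0.90, and Cidea, a lipid droplet protein, by 2.04. Lpin1, a phosphatidate phosphatase of fat synthesis, fell by 0.77. These 4 calls were kept without SHAM replicate 2, and those of Thrsp, Dgat2 and Slc22a17 were not. Adipocyte markers summed to 82.9 to 103 FPKM in SHAM and 122 to 162 in DN, and 2 of 7 tested rose (Cidea and Thrsp). Most of these sums was a single gene, Fabp4, at 70.2 to 77.8 FPKM in SHAM and 90.8 to 129 in DN. It was not called (0.48, edgeR adjusted p = 0.103). Adipoq, which defines adipocytes, was at 3.82, 1.31 and 2.73 FPKM in SHAM and at 1.95, 8.97 and 2.76 in DN. The part of fat cells in these results was not tested.

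In the lists of ubiquitin ligases and adaptors, autophagy and lysosome genes, and proteasome subunits, no member passed as higher in DN by edgeR. Of 18 tested ubiquitin ligases and adaptors 1 fell and 0 rose, 4 had positive log2 fold changes, and the median was -0.24 (-0.20 without SHAM replicate 2). At an unadjusted p under 0.05 by edgeR 6 were lower and 0 higher, and DESeq2 called 3 lower. In every DN library 6 lay below SHAM, beside 6.96% of all genes. Asb2, an adaptor that directs filamins to degradation, was at 579, 555 and 665 FPKM in SHAM and at 215, 313 and 305 in DN (-1.20, SE 0.172, edgeR adjusted p = 0.0137). Its relative Asb11 fell by 0.90 (0.0278), and both were called without SHAM replicate 2. Of the 15 tested Asb genes 2 had positive values. Fbxo32, the ligase atrogin-1, was at 13.9, 11.1 and 7.56 FPKM in SHAM and at 2.33, 5.37 and 5.30 in DN (-1.40, adjusted p = 0.0546 by edgeR; 0.0981 without SHAM replicate 2). Trim63, the ligase MuRF1, was at 101 ± 8.95 and 83.4 ± 9.65 FPKM (SD, n = 3; -0.37, adjusted p = 0.213 by edgeR). Of 30 tested autophagy and lysosome genes 0 passed in either direction by edgeR, 4 had an unadjusted p under 0.05 and were lower, and DESeq2 called 1 lower. Proteasome subunits had a median of -0.03 over 46 tested, with 0 called by edgeR or DESeq2 and 1 higher and 2 lower at an unadjusted p under 0.05.

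Glucocorticoid-responsive genes were split. Of 27 tested, 2 rose and 3 fell, beside 1.04% and 0.534% of all genes, and the median was -0.12 (0.01 without SHAM replicate 2). Pdk4 and Fkbp5 fell as above, and Sesn1, a stress-induced inhibitor of mTORC1, fell by 0.75. Hsd11b1, the enzyme that regenerates active glucocorticoid, was at 6.29, 3.11 and 3.62 FPKM in SHAM and at 12.0, 14.6 and 11.8 in DN (1.51, adjusted p = 0.0169 by edgeR). Mt1 rose too. All but the call of Sesn1 were kept without SHAM replicate 2 (0.0805). In the growth factor and FoxO list 1 of 26 tested fell: Foxo4, a FoxO factor, went from 64.2 ± 6.25 to 39.4 ± 4.30 FPKM (SD, n = 3; -0.78, adjusted p = 0.0338 by edgeR; 0.0585 without SHAM replicate 2).

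Some markers of endothelium rose by small amounts. Of 14 tested endothelium markers 4 rose, beside 1.04% of all genes, and 0 fell. In every DN library 7 lay above SHAM, beside 15.9% of all genes, and the median was 0.58 (0.51 without SHAM replicate 2). Tie1, an endothelial receptor kinase, was at 22.3, 14.4 and 14.4 FPKM in SHAM and at 27.6, 34.2 and 37.1 in DN (0.89, adjusted p = 0.024 by edgeR; 0.042 without SHAM replicate 2). Pecam1 and Cdh5, adhesion molecules of endothelial junctions, and Egfl7, a secreted endothelial factor, rose by 0.62, 0.65 and 0.63. Without SHAM replicate 2 these 3 kept fold changes of 0.61, 0.69 and 0.66 and had adjusted p of 0.0511, 0.054 and 0.0645. The markers summed to 184 to 234 FPKM in SHAM and 280 to 364 in DN.

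Collagen and basement membrane genes had 1 called rise in each list. Of 9 tested basement membrane genes 1 rose and 8 had positive log2 fold changes. Col4a1, the chain of network-forming type IV collagen, was at 54.8, 34.3 and 55.7 FPKM in SHAM and at 86.3, 104 and 128 in DN (1.06, adjusted p = 0.0265 by edgeR; 0.90 and 0.0301 without SHAM replicate 2). In the list of fibrillar collagens, related collagens and assembly genes 1 of 26 tested members rose: Col15a1, the collagen chain of type XV, at 0.68 (adjusted p = 0.0369 by edgeR), a call that did not hold without SHAM replicate 2. That list had a median of 0.09, and -0.18 without SHAM replicate 2, in which the list lay 0.72 below the mean of the libraries. Col1a1, the main fibrillar collagen, was at 326, 132 and 411 FPKM in SHAM and at 218, 311 and 253 in DN. It did not separate the groups (-0.22, adjusted p = 0.775 by edgeR). Tenocyte markers, in which SHAM replicate 3 was 1.18 above the mean, had a median of -0.61, which was 0.08 without that library, and 0 of 6 passed by edgeR or DESeq2 or had an unadjusted p under 0.05.

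Interferon response genes had mostly positive estimates, and macrophage markers had a median near 0. Of 28 tested interferon response genes 26 had positive log2 fold changes, beside 47.9% of all genes. In every DN library 16 lay above SHAM, beside 15.9% of all genes, and the median was 0.60 (0.54 without SHAM replicate 2). A single member, Bst2, a membrane protein that tethers viruses, passed: it was at 39.1, 37.6 and 43.8 FPKM in SHAM and at 64.3, 73.7 and 80.8 in DN (0.77, adjusted p = 0.0284 by edgeR; 0.0471 without SHAM replicate 2). Irf7 and Isg15, a regulator and a ubiquitin-like effector of this response, were at 1.02 (0.0981) and 0.99 (0.144) with no overlap. In antigen presentation 0 of 22 passed by edgeR, 4 had an unadjusted p under 0.05, all higher, DESeq2 called 1 higher, and the median was 0.30. B2m, the light chain of class I molecules, was at 151, 85.3 and 91.9 FPKM in SHAM and at 168, 197 and 207 in DN (0.74, 0.0553). Of 17 genes of the NF-kB and tumour necrosis factor family, Nfkb2, a subunit of the noncanonical pathway, rose by 0.72 (0.0418; 0.0788 without SHAM replicate 2), while its upstream ligand Ltb fell. Macrophage markers summed to 74.6 to 134 FPKM in SHAM and 84.4 to 140 in DN, with a median of -0.01 and 0 of 11 called by edgeR or DESeq2 or at an unadjusted p under 0.05. Lymphocyte markers summed to under 10 FPKM in every library.

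Large families had small medians and few calls. Cytosolic ribosomal proteins had a median of 0.11 over 83 tested (0.10 without SHAM replicate 2), with 28 above SHAM in every DN library, beside 15.9% of all genes. By edgeR 0 were called, 2 were higher and 1 lower at an unadjusted p under 0.05, and DESeq2 called 1 higher. Mitochondrial ribosomal proteins had a median of 0.05 over 70, with 0 called by edgeR or DESeq2 and 4 higher and 2 lower at an unadjusted p under 0.05. The Zfp zinc finger series had a median of -0.18 over 138 tested (-0.12 without SHAM replicate 2) and 39 positive values. In every DN library 19 of these genes lay below SHAM, beside 6.96% of all genes. Called as lower were 2, beside 0.534% of all genes: Zfp180, which was also called without SHAM replicate 2, and Zfp709, which was not. Splicing and hnRNP genes had 6 positive values of 33 and a median of -0.19, which was -0.05 without SHAM replicate 2. The initiation and elongation factors had 19 positive values of 61, and Eif4g3, a scaffold of translation initiation, fell, a call that did not hold without SHAM replicate 2. Among DnaJ co-chaperones Dnajc21, which works in ribosome maturation, fell from 16.7 ± 6.41 to 5.41 ± 0.857 FPKM (SD, n = 3; -1.70, adjusted p = 0.0304 by edgeR), and Dnajc2, which sits on the ribosome, fell by 1.39. The call of Dnajc21 was kept without SHAM replicate 2 and that of Dnajc2 was not. The median transcript length was 566 nucleotides for the cytosolic ribosomal proteins and 2972 for the Zfp series, beside 2184 over all genes tested, so the trend with length given above moves with both medians. Its part was not tested.

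**Figure D3:**
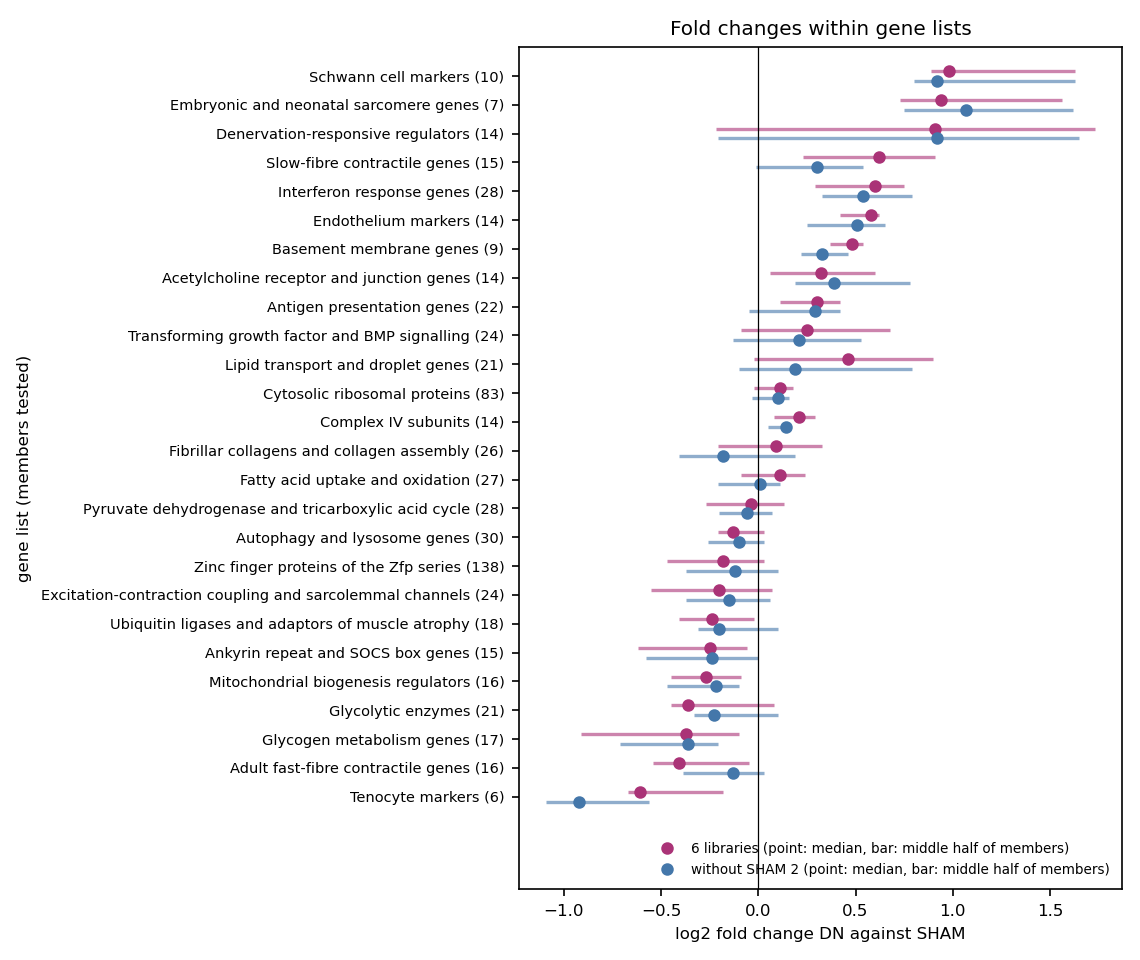
Log2 fold change (x axis) of DN against SHAM within 26 gene lists, with the number of members tested after each name. Points are medians and bars span the 25th to 75th percentile of the members, in purple with 6 libraries and in blue without SHAM replicate 2, where the slow-fibre, fast-fibre, collagen and tenocyte medians shift and the Schwann cell, interferon and glycogen medians stay near their values.

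Without SHAM replicate 2, 109 of 10130 genes tested passed (1.08%), 67 higher and 42 lower. The 87 calls in common with the 6-library test were 0.877% of its genes and 55.8% of its calls, 59 higher and 28 lower. The 69 calls that were lost all kept their sign, and their median absolute log2 fold change went from 0.89 to 0.80. None of them shrank by more than 1.5-fold. SHAM replicate 2 was the SHAM library farthest from DN in 38 of these 69 genes, SHAM replicate 1 in 19 and SHAM replicate 3 in 12, beside 79, 48 and 29 of all 156 called genes. Among abundant genes whose calls were lost were Lgals1, a small lectin, at 393, 353 and 461 FPKM in SHAM and 680, 685 and 726 in DN (0.71 with 6 libraries and 0.66 without), and Sar1b, a GTPase of vesicle export, at 278, 388 and 312 FPKM in SHAM and 182, 196 and 156 in DN (-0.96 and -0.77). In both the SHAM and DN libraries did not overlap.

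Among rises with a mean of at least 5 FPKM in DN that passed in both fits, the largest after Apod and Ciart were Cst7, Ankrd1, Cidea, Enho, S100a4, Mgmt and Mt1, with 1 gene that has no symbol. Cst7, a cystatin of immune cells, was at 2.23, 3.66 and 2.19 FPKM in SHAM and at 16.2, 7.47 and 23.3 in DN. Enho, which encodes the peptide adropin, rose by 2.03 with 6 libraries and 1.82 without SHAM replicate 2. S100a4, a calcium-binding protein of motile cells, was at 9.32, 8.23 and 13.9 FPKM in SHAM and at 36.2, 36.2 and 65.8 in DN. Mgmt, a DNA repair enzyme, rose by 1.99 and 1.85. No SHAM library overlapped DN in these genes.

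Cib2, a calcium- and integrin-binding protein, had the fall in this group that changed most: -2.27 with 6 libraries and -1.68 without SHAM replicate 2, where it was at 22.1 FPKM beside 8.12 and 10.8 in the other SHAM libraries and 2.05 to 3.91 in DN. Smtnl2, a smoothelin-like protein, fell from 99.0 ± 22.6 to 46.3 ± 6.02 FPKM (SD, n = 3; -1.19 with 6 libraries and -0.94 without). Tsc22d4, a leucine zipper protein, went the other way at 85.8, 80.4 and 82.7 FPKM in SHAM and 183, 130 and 194 in DN (0.94 and 0.96).

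Conversely, 22 genes passed only without SHAM replicate 2, 8 higher and 14 lower, and in 18 of them that library was the SHAM library nearest the DN mean. Besides Myh3, Myh4 and Npas2 they included Alpk3, a kinase of the sarcomere, at 187, 102 and 139 FPKM in SHAM and 83.7, 95.1 and 93.3 in DN (-0.71 with 6 libraries, -0.87 and edgeR adjusted p = 0.0214 without). Nes, the intermediate filament nestin, was at 3.69, 6.90 and 3.97 FPKM in SHAM and 7.55, 6.70 and 10.9 in DN (0.68, then 1.07 and 0.0346). Nes overlapped between groups through SHAM replicate 2 alone. In the other direction, Csrp3, Ankrd2 and Myoz2, Z-disc proteins enriched in slow fibres, were among the genes in which SHAM replicate 2 lay farthest below the other SHAM libraries. Csrp3 was at 59.2 FPKM there and at 321 and 214 in the others, and its log2 fold change of 1.01 became 0.60 without it, with neither value past the test.

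**Figure D4:**
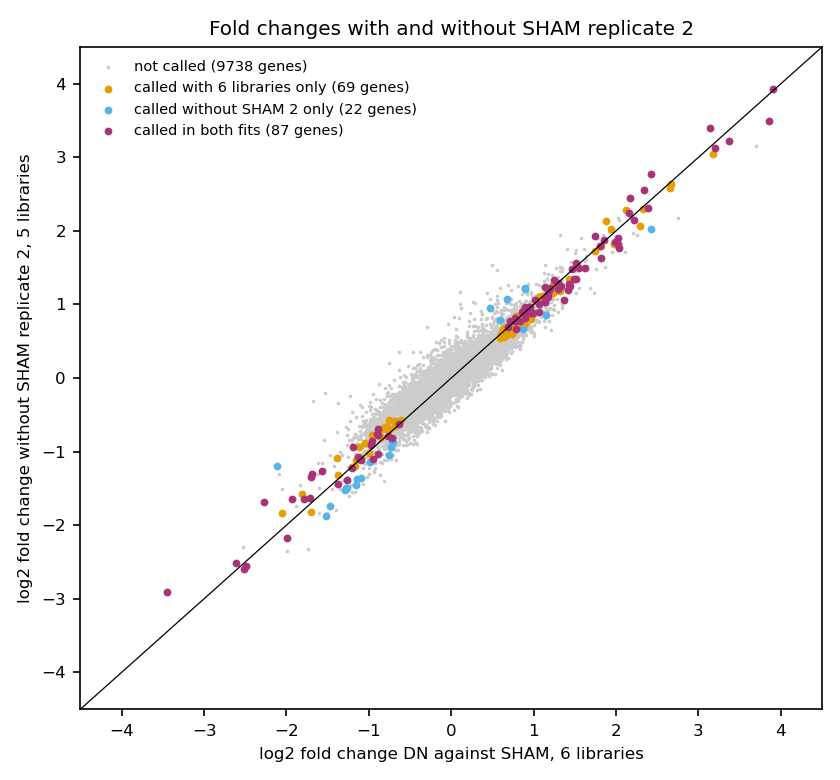
Log2 fold change of each tested gene with all 6 libraries (x axis) and without SHAM replicate 2 (y axis), with the diagonal as a black line. The 87 genes called in both fits (purple), the 69 called with 6 libraries only (orange) and the 22 called without SHAM replicate 2 only (light blue) lie on the same side of 0 on both axes. Some lie off the diagonal, such as Myh4 (-2.11 and -1.19) and Cib2 (-2.27 and -1.68).

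**Figure D5:**
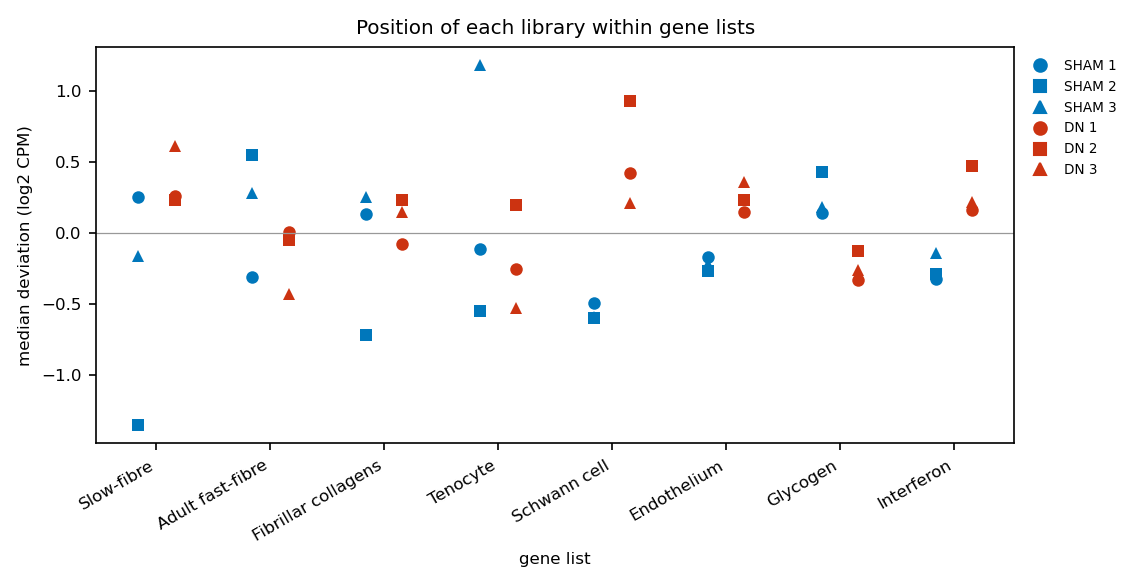
Position of each library within 8 gene lists, as the median over members of the deviation from the mean log2 CPM of the 6 libraries (SHAM blue, DN red, shape by replicate). SHAM replicate 2 lies at -1.35 in the slow-fibre list and -0.72 in the fibrillar collagens and SHAM replicate 3 at 1.18 in the tenocyte markers, while all DN libraries lie above all SHAM libraries for Schwann cell, endothelium and interferon genes and below them for glycogen genes.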

How the data were processed

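RNA of 3 SHAM and 3 DN gastrocnemius libraries was compared. The authors deposited, per the file headers, an expected count and an FPKM value for each listed gene, with 1 table per library. The submitters' processing notes name GATK, HISAT2, RSEM and build rn6; their versions and settings are not given in the sources used here. Tables were joined on gene ID, and a gene missing from a table was taken as 0. Of 13542 IDs, 13446 matched a RefSeq symbol by gene ID, 6 by transcript accession and 90 not at all.

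After rounding of the expected counts, edgeR 4.0.16 in R 4.3.3 was run with its quasi-likelihood F test, two-sided, with TMM scaling, robust estimation, filterByExpr (minimum count 10, minimum total 15) and Benjamini-Hochberg adjustment over all genes tested, at 0.05. The script was tested on simulated data with known changes. FPKM, which the authors scaled, served for levels. Alternatives used limma 3.58.1, DESeq2 1.42.0, other scalings and filters, all 9 libraries, the replicate number as a block, and each library left out.

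The members and gene lists were chosen with earlier results of these data known. Of 1001 list entries 948 matched a listed gene and 873 were tested. Genes that failed the filter have no fold change, and a gene can pass it through its higher group alone, so list medians cover tested members only. Named genes were the 10 largest rises and 10 largest falls called with and without SHAM replicate 2 with a mean of at least 5 FPKM in the higher group, the 6 largest called rises and falls in FPKM, up to 4 members of each list by p with every called member, a few fixed muscle genes, and the 5 genes farthest above and 5 farthest below in SHAM replicate 2. Not every gene so chosen is printed.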

Additional observations from a re-analysis of the deposited data

How the results depend on the processing

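The count of genes called, 156 by edgeR with 6 libraries, was 526 with DESeq2's Wald test and 323 with limma-voom and sample weights, and 277 with edgeR without a filter and 432 with all 9 libraries in the fit. On log2(FPKM + 1), limma called 97 genes, on log2(FPKM + 0.1) 89, and without a filter 31. Without SHAM replicate 2, DESeq2 called 252 genes and limma on log2(FPKM + 1) 12. The cause of these differences was not tested. With single libraries left out the count ran from 15 to 739. Of the 156 calls, 149 were also made by DESeq2, 148 by limma-voom, 149 with all 9 libraries and 87 by limma on log2(FPKM + 1). Other scalings, another filter on low counts and edgeR without robust estimation gave 156 to 174 calls.

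With the replicate number as a block 151 genes were called, 109 of them among the 156. Same-numbered libraries had correlations of their deviations from the group means of -0.00898, 0.0232 and -0.0434, so the numbers were not taken to pair samples, and not every library correlated best with its own number.

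Of the 115 genes named in the text, 83 were called, and 0 of these reversed under any alternative. The 7 that reversed were not called. With single libraries left out, the log2 fold change of Ankrd2 ran from -0.27 (without SHAM replicate 2) to 0.52, of Myoz2 from -0.09 (without SHAM replicate 2) to 0.85, of Nr1d2 from -0.38 to 0.16 (without SHAM replicate 2), of Nr1d1 from -0.31 to 0.04 (without SHAM replicate 3), of Col1a1 from -0.55 to 0.18 (without SHAM replicate 3) and of Adipoq from -0.21 (without DN replicate 2) to 1.09. Without SHAM replicate 2, DESeq2 and limma on log2(FPKM + 1) gave -0.28 and -0.25 for Ankrd2, -0.10 and -0.03 for Myoz2, and 0.15 and 0.17 for Nr1d2, and DESeq2 gave 0.0 for Dag1. Nr1d1 was at 0.07 with limma-voom. With 3 libraries per group, a change that did not pass cannot be read as absent.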

Other observations

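Several called genes outside the gene lists, chosen here after their values were seen, are known from endothelium. Ramp2, a partner of the adrenomedullin receptor, was at 34.3, 27.5 and 37.7 FPKM in SHAM and at 61.5, 65.0 and 80.7 in DN (log2 fold change 0.97, edgeR adjusted p = 0.0187). Apln, the ligand apelin, stood at 2.78 ± 0.165 FPKM in SHAM and at 6.77 ± 0.627 in DN (SD, n = 3; 1.20, adjusted p = 0.0142 by edgeR). Rasip1, which acts in vessel lumen formation, rose by 0.78. These 3 calls were kept without SHAM replicate 2, and that of Plxnd1, a semaphorin receptor of vessels, was not (0.67 with 6 libraries and 0.58 without). The groups did not overlap in any of the 4 genes.

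Among regulators of growth and differentiation, Dlk1, a Notch-related membrane protein, rose by 1.37, Cdkn1c, the cell cycle inhibitor p57, by 1.14 and Tp63, a relative of p53, by 1.25. Kalrn, a guanine exchange factor, was at 2.56, 2.52 and 2.46 FPKM in SHAM and at 1.25, 1.22 and 1.17 in DN, a fall of 1.13 on the log2 scale with little spread in either group. Lmod1, an actin-filament nucleator, fell by 1.10, Prkar2a, a regulatory subunit of protein kinase A, by 1.27 and Dyrk2, a protein kinase, by 1.69. All 7 calls were kept without SHAM replicate 2. P2rx7, an ATP-gated channel, had an expected count of 1 in each SHAM library and of 17, 22 and 14 in the DN libraries, so that no fold is given.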
